A study of Homo sapiens with 3 samples.

Results

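The resting miRNA profile of untreated SK-MEL-2 cells was described from the single untreated control library of the series. The mature miRNAs taken were those with at least 10 counts in that library, which 282 of the 2588 listed miRNAs met. SK-MEL-2 is an established human melanoma line that carries an activating NRAS mutation. The series set such cells beside cells exposed to a nonthermal plasma jet for 3 or 5 min, and all were harvested on Day 2; the plasma-exposed libraries were not used here. The control cells had no treatment, grew in RPMI-1640 with 10% FBS and antibiotics, and gave total RNA (Trizol) for a NEBNext small RNA library. A single library has no replicate, so no difference below carries a test, and every interval is an exact (Clopper-Pearson) 95% binomial interval that covers counting error only.

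A miRNA gene is transcribed as a longer RNA that folds into a hairpin, and Drosha and Dicer cut the hairpin to a short duplex of a 5p arm and a 3p arm. One arm, the guide, is usually kept in Argonaute and the other, the passenger, is usually lost. The guide finds mRNAs mainly by its seed, bases 2 to 8 counted from its 5′ end, so miRNAs that share a seed form a family with overlapping targets. Hairpins that lie close together on one strand form a cluster and are often made from one transcript, though each can mature and last to a different degree. In melanocytes and melanoma, miR-211 and miR-204 are known from the TRPM1 and TRPM3 genes that host them, and miR-21, miR-221 and miR-222 are known as miRNAs linked to growth.

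The library held 1045482 counts, of which the 282 miRNAs made 99.9%. Of all listed miRNAs, 639 had a count and 1949 were at 0. A count of 0 allows a share of up to 0.000353% by the exact interval. For ratios to an arm at 0, 3 counts (0.000287%) were taken as the floor. At the edge of the selection, 11 miRNAs had 10 counts and 8 miRNAs had 9 counts. A share at 10 counts was 0.000956% (0.000459% to 0.00176%). Reads were not tagged with molecular identifiers, and adapter ligation is known to favour some RNA ends, so the order of miRNAs is an order of reads and not of molecules. The part of that bias in the order was not tested.

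The sequences below carry most of the reads. They come from RefSeq (GRCh38.p14), in which 253 of the 282 miRNAs were matched by name, and the seed is in capitals. The first sequence is that of the most abundant miRNA, and the next 9 are the let-7 family, shown in full because its members differ by few bases outside an identical seed.
miR-21-5p: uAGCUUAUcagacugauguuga
let-7i-5p: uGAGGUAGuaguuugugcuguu
let-7f-5p: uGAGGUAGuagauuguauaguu
let-7g-5p: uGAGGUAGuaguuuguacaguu
let-7c-5p: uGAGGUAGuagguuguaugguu
let-7a-5p: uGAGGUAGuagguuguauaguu
let-7b-5p: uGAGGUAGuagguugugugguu
let-7d-5p: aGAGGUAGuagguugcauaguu
miR-98-5p: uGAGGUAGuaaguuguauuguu
let-7e-5p: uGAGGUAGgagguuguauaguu

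The next set holds the leading members of the other large families, shown because the members of each family share a seed and differ outside it.
miR-27b-3p: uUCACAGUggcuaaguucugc
miR-27a-3p: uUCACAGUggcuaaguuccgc
miR-125b-5p: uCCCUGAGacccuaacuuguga
miR-125a-5p: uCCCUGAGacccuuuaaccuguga
miR-99a-5p: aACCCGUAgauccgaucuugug
miR-99b-5p: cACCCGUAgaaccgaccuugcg
miR-100-5p: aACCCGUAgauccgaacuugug
miR-221-3p: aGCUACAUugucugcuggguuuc
miR-222-3p: aGCUACAUcuggcuacugggu
miR-26a-5p: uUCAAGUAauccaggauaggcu
miR-26b-5p: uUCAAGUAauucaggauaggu

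The last set holds pairs to which the accounts of arms and strands return: both arms of MIR140 and MIR30E, a miRNA with its reverse complement on the opposite strand, and the melanocytic pair.
miR-140-5p: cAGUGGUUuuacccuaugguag
miR-140-3p: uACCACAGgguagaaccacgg
miR-30e-5p: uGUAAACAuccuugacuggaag
miR-30e-3p: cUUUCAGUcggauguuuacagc
miR-7-5p: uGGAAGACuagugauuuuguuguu
miR-3529-3p: aACAACAAaaucacuagucuucca
miR-204-5p: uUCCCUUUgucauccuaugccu
miR-211-5p: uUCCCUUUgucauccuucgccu

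A few miRNAs made most of the library. miR-21-5p, an oncogenic miRNA known to repress PDCD4, had 353933 counts, a share of 33.9% (33.8% to 33.9%). The let-7 member let-7i-5p followed with 111578 counts (10.7%, interval 10.6% to 10.7%), so miR-21-5p was 3.17 times as high as the next miRNA. let-7f-5p came after it with 66871 counts (6.396%). Together these 3 miRNAs reached 50% of all counts, 13 reached 75%, 29 reached 90%, 49 reached 95% and 107 reached 99%.

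Below them came miR-125b-5p, the human relative of worm lin-4, with 43083 counts (4.12%). miR-27b-3p had 36276 counts (3.47%) and miR-99a-5p, whose family is known to repress MTOR, had 34423 (3.29%). let-7g-5p had 27537 counts (2.63%), let-7c-5p 23690 (2.27%) and miR-221-3p 23127 (2.21%). miR-26a-5p, known to repress EZH2, closed the first 10 with 19810 counts (1.89%). Among neighbours in these 10, only the intervals of let-7c-5p (2.24% to 2.29%) and miR-221-3p (2.18% to 2.24%) overlapped.

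The other 10 of the 20 most abundant miRNAs lay between 9389 and 19203 counts. They were let-7a-5p (19203), miR-27a-3p (18427), miR-140-3p (17048), the neural miRNA miR-9-5p (16885) and miR-24-3p (16037). After these came miR-3529-3p (14868), miR-7-5p (14408), which is known to repress EGFR, miR-29a-3p (11660), which is known to repress collagens, let-7b-5p (10782) and miR-191-5p (9389). The first 10 miRNAs held 70.8% of the library and the first 20 held 85.0%. Of the 20, 13 were 5p arms and 7 were 3p arms.

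The rest of the profile was long and thin. Besides 19 miRNAs with at least 10000 counts, which held 84.1% of the library, 42 miRNAs lay between 1000 and 10000 counts (12.5%) and 78 between 100 and 1000 (2.82%). Another 143 miRNAs lay between 10 and 100 counts and held 0.480%. The median of the 282 miRNAs was 88.5 counts. The 2306 miRNAs under the minimum held 0.0881%.

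**Figure D1:**
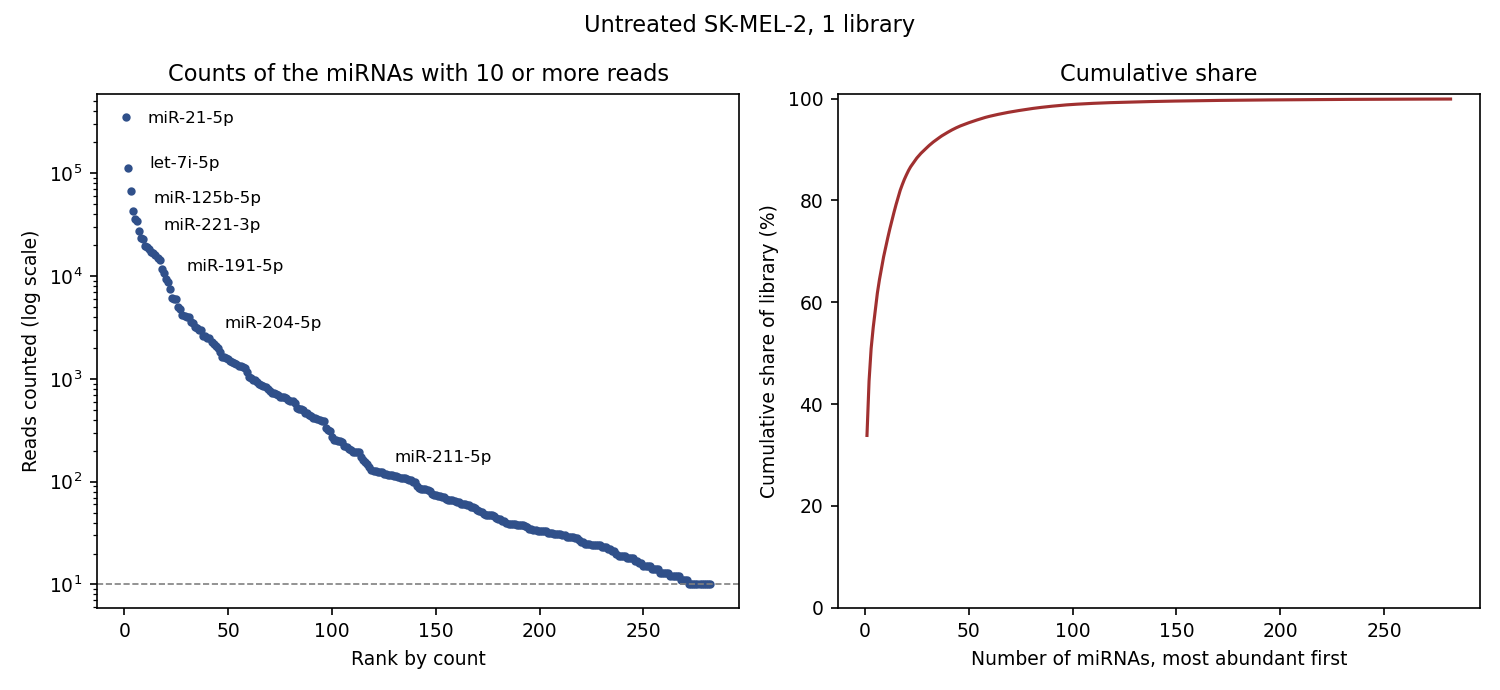
Left, reads counted (log axis) against rank for the 282 miRNAs, 1 point per miRNA, with the minimum of 10 counts as a dashed line; right, the cumulative share of the library in percent. The curve passes 50% at 3 miRNAs and 90% at 29, and miR-204-5p and miR-211-5p lie far below miR-21-5p.

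Grouped by identical bases 2 to 8, the 253 miRNAs with a sequence formed 197 families. Of these, 33 had several members and held 50.5% of the library, and 164 had 1 member and held 48.0%, or 14.2% when miR-21-5p was taken away. The 29 miRNAs without a sequence, 1.43% of the counts with miR-30d-5p, miR-30b-5p and miR-151a-3p among them, were placed in no family. The first 2 families, miR-21 and let-7, held 59.7% of the library, and the first 8 held 80.7%. Of the families formed in this way, 13 exceeded 1%. miR-30d-5p (8799 counts) and miR-30b-5p (386) carry the miR-30 name and are outside the family of miR-30c-5p, miR-30a-5p and miR-30e-5p (6217 counts, 0.595%), so the number of families over 1% and the order below the first 8 leave them out. The 13 also include miR-3529-3p (1.42%) and miR-7-5p (1.38%), reverse complements whose reads may not be separable. The number over 1% and the order of families, the first 8 included, are uncertain for that reason too.

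The let-7 family, known to repress RAS, HMGA2 and MYC mRNAs and to be blocked by LIN28 in early development, had 270402 counts. That was 25.9% of the library (25.8% to 25.9%), spread over 9 members from 12 hairpins. let-7i-5p made 41.3% of the family, let-7f-5p 24.7%, let-7g-5p 10.2% and let-7c-5p 8.76%. let-7a-5p made 7.10% from 3 hairpins, while let-7i-5p came from 1 hairpin. The range within the family ran from let-7i-5p down to let-7e-5p at 2306 counts (0.853% of the family).

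All 9 let-7 sequences were 22 bases long and had no difference in the seed. Counted from the 5′ end with the base of let-7a-5p first, let-7i-5p differed by G12U, A17G, U18C and A19U. let-7f-5p differed by G12A alone, let-7c-5p by A19G alone and let-7e-5p by U9G alone. let-7g-5p differed by G12U and U18C, let-7b-5p by A17G and A19G, let-7d-5p by U1A and U16C, and miR-98-5p by G11A and A19U. let-7i-5p, the most abundant member, was therefore the one with the most differences from let-7a-5p. How reads with a mismatch or with several matches were assigned is not given in the sources used here, so the split among let-7a-5p, let-7b-5p, let-7c-5p, let-7e-5p and let-7f-5p is uncertain, while the family sum does not depend on it. Over all families, 19 pairs of these miRNAs, 32 miRNAs with 23.2% of the counts, were 1 mismatch apart.

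In the other large families 1 member led. The miR-27 family, known from fat cell differentiation, had 54703 counts (5.23%), of which miR-27b-3p made 66.3% (65.9% to 66.7%) and miR-27a-3p 33.7%; they are 1 mismatch apart and their split is uncertain. The miR-125 family had 50652 counts (4.84%), with 85.1% from miR-125b-5p and 14.9% from miR-125a-5p. The miR-99/100 family had 46560 counts (4.45%), with 73.9% from miR-99a-5p. Its other members were nearly equal at 6129 counts for miR-99b-5p and 6008 for miR-100-5p, and miR-100-5p is 1 mismatch from miR-99a-5p.

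The miR-221/222 family, known to repress the cell cycle inhibitor CDKN1B and the receptor KIT, had 27865 counts (2.67%). miR-221-3p made 83.0% of it (82.6% to 83.4%) and miR-222-3p, from the same cluster, 17.0%. In the miR-26 family (22820 counts, 2.18%), miR-26a-5p made 86.8%, miR-26b-5p had 2972 counts and miR-1297 had 38. miR-140-3p was alone in its family (1.63%). Over the 33 families with several members, the leading member made a median of 68.3% of the family, and in 8 families it made over 80%.

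**Figure D2:**
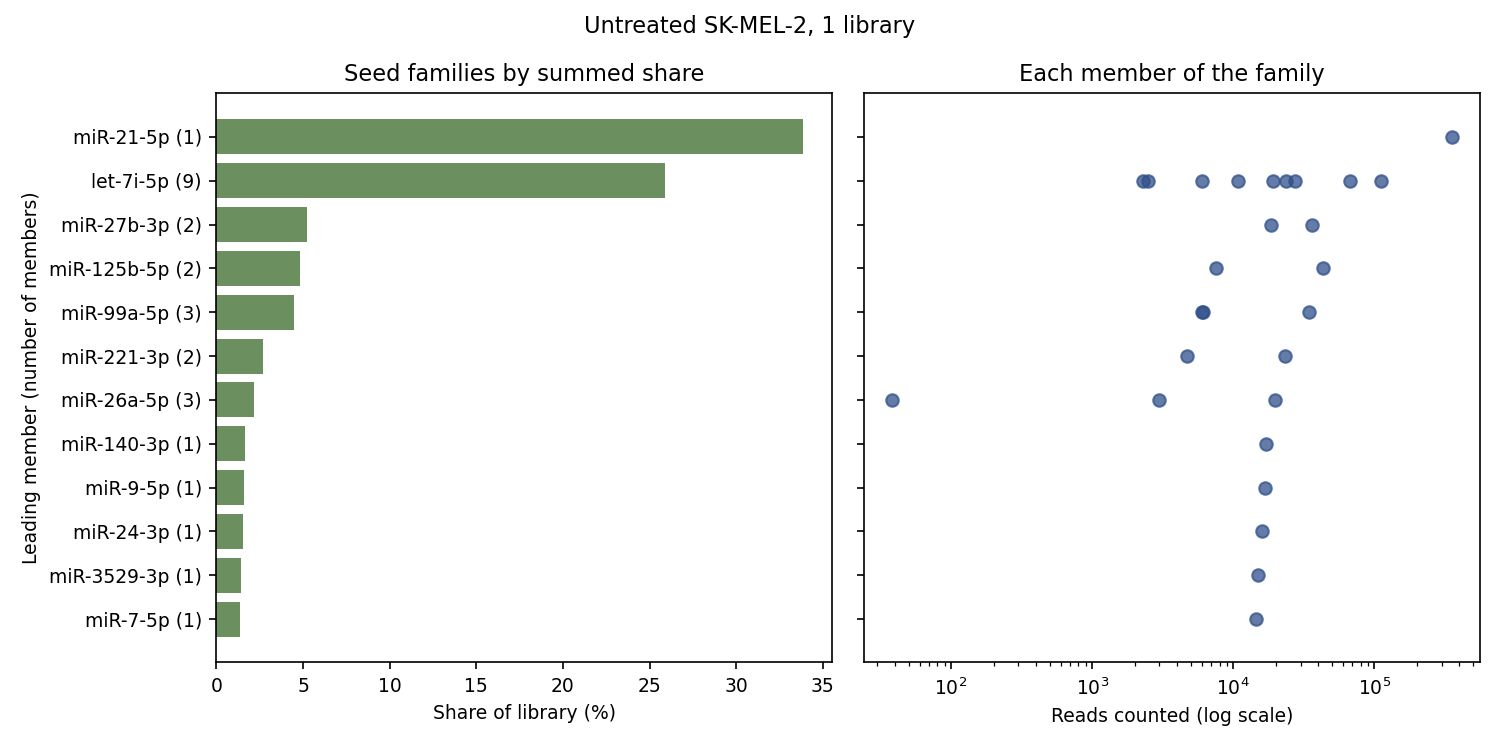
Left, share of the library in percent for the 12 largest seed families, each named by its leading member with its number of members in brackets; right, the reads counted (log axis) for each member, 1 point per miRNA. The let-7 family holds 9 members between 2306 and 111578 counts, while miR-21-5p stands alone.

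By genomic position, 278 of the 282 miRNAs could be placed on 230 hairpins in GRCh38; the authors' build is not given in the sources used here. The other 4, miR-4792, miR-6087, miR-7641 and miR-1273g-3p, held 0.0405% of the counts. Hairpins on one strand with gaps of at most 10 kb were joined, and the count of a miRNA made by several hairpins was divided equally among them. This gave 25 clusters with 64 hairpins that held 33.2% of the library, and 166 lone hairpins that held 66.7%. Without MIR21 the lone hairpins held 32.9% of all counts, near the 33.2% of the clusters. That nearness depends on the 10 kb gap and on the equal division. Clusters held 31.0% with gaps of at most 3 kb and 36.0% with 50 kb. With miRNAs made by several hairpins left out, they held 20.9%.

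MIR21 lies on chromosome 17, 59841266 to 59841337, in an intron of the protein-coding gene VMP1 (GENCODE v29 basic set). Hosts were sought on the hairpin's own strand, leaving out pseudogenes, small RNA genes and non-coding genes with only a clone name. By this rule MIRLET7I, on chromosome 12, 62603686 to 62603769, had no host gene. MIRLET7G is on chromosome 3, 52268278 to 52268361, in an intron of WDR82, and MIR140 is on chromosome 16, 69933081 to 69933180, in an intron of WWP2. These 4 hairpins were lone. Over all hairpins, 97 in introns of protein-coding genes held 57.0% of the library, or 35.0% of the counts that remain without miR-21. Another 28 in introns of non-coding genes held 16.05%, 78 without a host gene by this rule held 23.8%, and 21 in exons of non-coding genes held 2.96%.

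The largest cluster was MIR99A/MIRLET7C on chromosome 21, 16539089 to 16539911, in an intron of the non-coding gene MIR99AHG. It had 58137 counts (5.56%, interval 5.52% to 5.60%), with 34423 from miR-99a-5p, 23690 from let-7c-5p and 24 from let-7c-3p. Its 2 hairpins were within 1.45-fold of each other. miR-99a-5p is 1 mismatch from miR-100-5p, and let-7c-5p is 1 mismatch from let-7a-5p and from let-7b-5p. The ratio and the cluster's share therefore rest on uncertain splits. MIR125B2 lies in an intron of MIR99AHG too, but too far away to be joined, and was counted as a lone hairpin (2.07%). That share is not measured, as it rests on dividing miR-125b-5p equally between MIR125B1 and MIR125B2. Of the passenger reads, 3530 named MIR125B1 and 104 named MIR125B2. A paralogous arrangement, MIR99B/MIRLET7E/MIR125A on chromosome 19, 51692612 to 51693339, in an intron of SPACA6, held 1.67%. There miR-125a-5p had 7569 counts, miR-99b-5p 6129, let-7e-5p 2306 and miR-99b-3p 1283. Both of these arrangements hold a miR-99 and a let-7 hairpin, and the first stood above the second in both: miR-99a-5p above miR-99b-5p and let-7c-5p above let-7e-5p. A further cluster with a member of each family, MIRLET7A2/MIR100 in an intron of MIR100HG, held 1.19%. With gaps of up to 50 kb it also took in MIR125B1 and held 3.585%. Both sums rest on the equal division of miRNAs made by several hairpins.

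In both miR-23/27/24 clusters the miR-27 hairpin was above the miR-23 hairpin. MIR23B/MIR27B/MIR24-1 on chromosome 9, 95085208 to 95086088, in an intron of C9orf3, held 4.56%, with 36401 counts for MIR27B, 8037.5 for MIR24-1 and 3235 for MIR23B. MIR24-2/MIR27A/MIR23A on chromosome 19, 13836287 to 13836659, without a host gene by the rule above, held 2.93%. Its counts were 19918 for MIR27A, 8745.5 for MIR24-2 and 1993 for MIR23A. The miR-27 hairpin thus exceeded the miR-23 hairpin of its cluster 11.3-fold and 9.99-fold. Between the clusters the miR-27 guides are 1 mismatch apart, as are the miR-23 guides, so these ratios rest on uncertain splits. miR-24-3p comes from both clusters and was divided equally, so the place of the miR-24 hairpins is not measured. With miRNAs made by several hairpins left out, the clusters held 3.79% and 2.17%. The passenger arms had 727 counts for miR-24-2-5p and 19 for miR-24-1-5p, and the latter is in part the reverse complement of miR-3074-3p (385 counts), so this contrast is uncertain.

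Of the let-7 clusters, MIRLET7A1/MIRLET7F1/MIRLET7D on chromosome 9, 94175957 to 94178920, held 4.47%. MIR98/MIRLET7F2 on chromosome X, 53556223 to 53557274, in an intron of HUWE1, held 3.44%, and MIRLET7A3/MIRLET7B on chromosome 22, 46112749 to 46113768, in an exon of MIRLET7BHG, held 1.69%. These sums rest on the equal division of let-7a-5p and let-7f-5p. With miRNAs made by several hairpins left out, the clusters held 0.623%, 0.242% and 1.05%. let-7d-5p (5963 counts), let-7b-5p (10782) and miR-98-5p (2472) were the guides that name 1 hairpin there. The passenger arms of let-7f were at 85 counts for let-7f-1-3p and 32 for let-7f-2-3p.

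MIR221/MIR222 on chromosome X, 45746157 to 45747124, in an intron of MIR222HG, held 2.75%. Its hairpins differed 4.82-fold, with 23127 counts for miR-221-3p, 4738 for miR-222-3p, 673 for miR-221-5p and 195 for miR-222-5p. The 8 largest clusters held 27.1% of the library. Some smaller clusters, chosen after their values were seen, were far more uneven. In MIR425/MIR191 (DALRD3 intron, 0.913% of the library) the hairpins differed 58.3-fold, with 9389 counts for miR-191-5p and 161 for miR-425-5p. In MIR29A/MIR29B1, miR-29a-3p had 11660 counts, while miR-29b-3p had 333 from 2 hairpins, of which MIR29B1 is 1. In the MIR17 to MIR92A1 cluster (MIR17HG), the miRNAs that come from 1 hairpin ran from 613 counts for miR-20a-5p to 28 for miR-18a-5p.

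**Figure D3:**
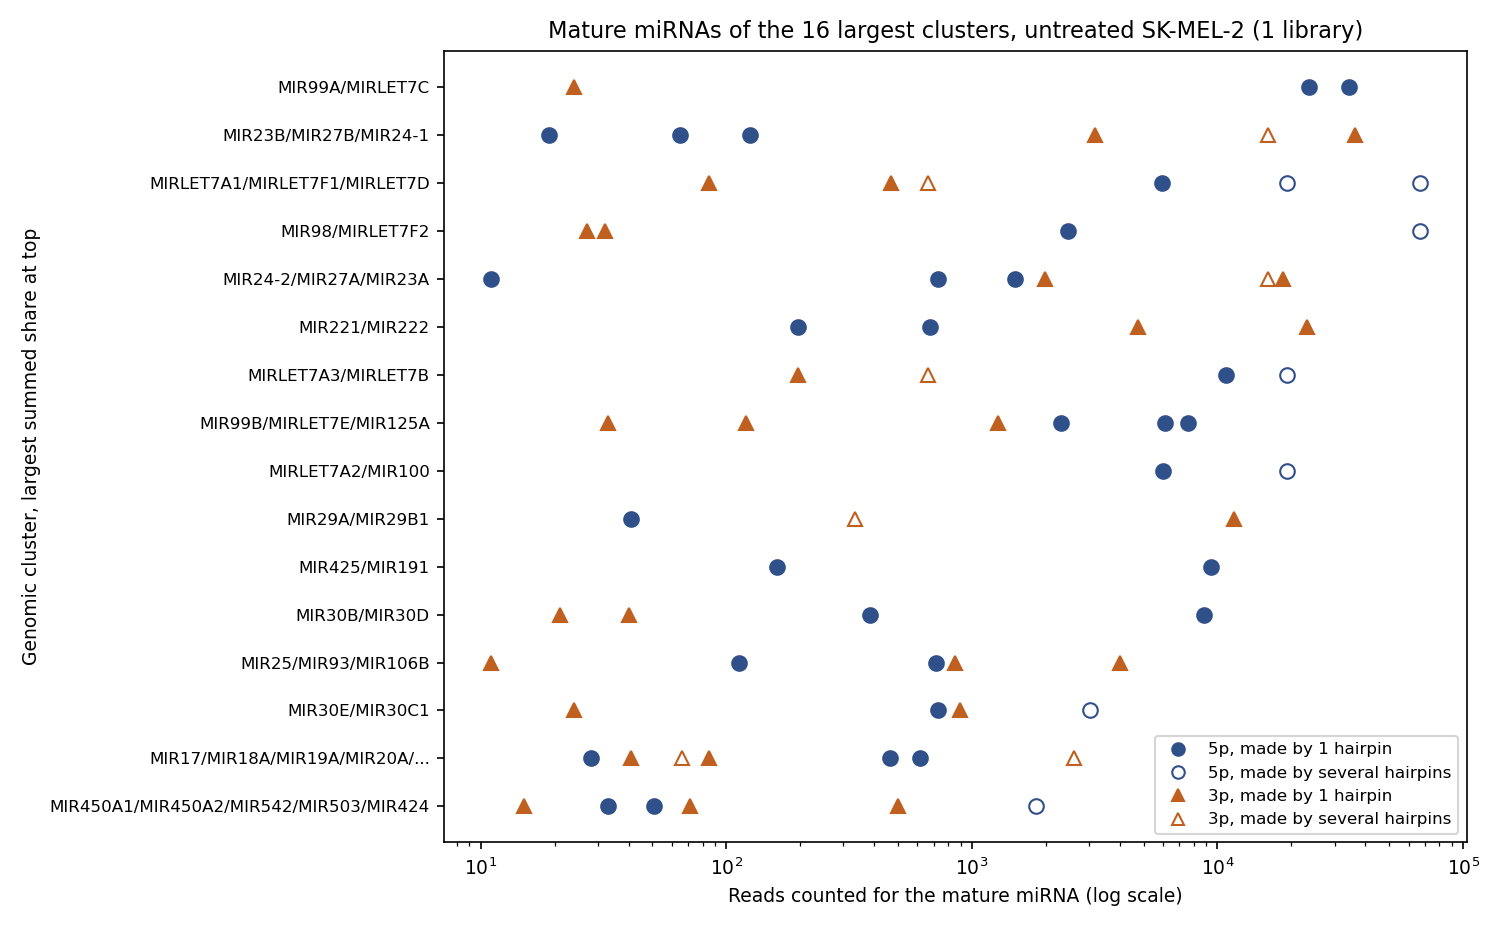
Reads counted (log axis) for each mature miRNA with at least 10 counts in the 16 largest clusters, 1 point per miRNA. Circles are 5p arms and triangles 3p arms. Open symbols are miRNAs made by several hairpins, plotted at their whole count in each cluster. The points of MIR99A/MIRLET7C run from 24 to 34423 counts, and MIRLET7A2/MIR100 has 2 points, at 6008 and 19203. Arms under the minimum are not drawn, among them miR-99a-3p (1 count), miR-100-3p (3) and let-7a-2-3p (1). The open symbols at 66871 counts are let-7f-5p in both clusters that can make it.

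The large miRNA regions described here were nearly silent in reads, and they were chosen for their size in the genome. Their counts stand beside 282 of all 2588 listed miRNAs that reached 10 counts. In the imprinted DLK1-DIO3 region of chromosome 14 (100869060 to 101066801), 2 of 91 listed miRNAs reached 10 counts, miR-337-3p with 32 and miR-539-3p with 24. The region summed to 86 counts (0.00823% of the library). In the placental cluster of chromosome 19 (53666679 to 53758318), 0 of 59 listed miRNAs reached 10 counts and the sum was 8 counts. On chromosome X (147189704 to 147284728), in the cluster that runs from miR-506 to miR-514 and is known from melanoma and testis, 0 of 20 reached 10 counts and the sum was 4.

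Arm choice was read from 100 sets of hairpins (123 hairpins, 99.3% of the counts) with both arms listed and at least 100 counts; hairpins that share a mature miRNA were joined. A set was 5p-dominant at 90% or more 5p, 3p-dominant at 10% or less and otherwise mixed. There were 50 5p-dominant sets with 79.4% of the library, 25 3p-dominant sets with 14.97% and 25 mixed sets with 4.90%. The 5p arm made 81.9% of the counts in these sets, or 72.5% without miR-21, and it was the higher arm in 61 sets. The lower arm made 2.00% of the counts in all, with a median of 1.79% per set, was below 1% in 40 sets and at 0 in 17.

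Among the 10 largest sets, 5p guides had almost no passenger. miR-21 had 353933 5p and 30 3p counts, let-7i had 111578 and 33, and miR-99a had 34423 and 1. let-7g had 27537 5p and 2 3p counts, let-7c had 23690 and 24, and let-7f had 66871 and 117. miR-125b stood apart among them at 92.2% 5p (92.0% to 92.5%). Of its passenger reads, 3530 were miR-125b-1-3p, from MIR125B1 on chromosome 11, and 104 were miR-125b-2-3p, from MIR125B2 on chromosome 21; the guide is the same for both hairpins.

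The 3p-dominant sets included both members of the miR-27 and miR-221/222 families. miR-27b had 125 5p and 36276 3p counts (0.343% 5p), and miR-27a had 1491 and 18427 (7.49% 5p, interval 7.12% to 7.86%). The passenger share was thus higher in miR-27a, though its guide was lower. The 2 guides are 1 mismatch apart, so both shares rest on an uncertain split. miR-221 was at 2.83% 5p and miR-222 at 3.95%. miR-24 was at 4.44% 5p, miR-29a had 9 5p and 11660 3p counts, and miR-199a had 118 and 4098. miR-3529 had 0 5p counts beside 14868 3p counts, which is 4956-fold against the floor of 3 counts.

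The further 5p-dominant sets were let-7a at 96.7% 5p, let-7b at 98.2%, miR-9 at 99.3%, miR-7 at 99.8%, and miR-26a and miR-191 both at 99.9%. For let-7a the passenger reads were 663 for let-7a-3p, made by MIRLET7A1 and MIRLET7A3, and 1 for let-7a-2-3p, made by MIRLET7A2. The third hairpin therefore left almost no passenger read.

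MIR140 was the only mixed hairpin among the 10 largest sets. Its 3p arm had 17048 counts and its 5p arm 4968, so the 5p share was 22.6% (22.01% to 23.1%). The arms printed above have different seeds, and miR-140-5p, the arm known from cartilage, was itself above 1000 counts. The set nearest to an even split was miR-30e, with 725 5p and 893 3p counts (44.8% 5p, interval 42.4% to 47.3%), and each of its arms is 1 mismatch from an arm of miR-30a, so the split is uncertain. miR-574 had 74 and 48 (60.7% 5p), miR-503 33 and 71 (31.7%) and miR-339 154 and 60 (72.0%). miR-3184 (627 and 215) and miR-3065 (47 and 126) were also mixed, and both lie opposite another hairpin.

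In some sets the arm with more reads was not the arm usually described as the guide; these sets were chosen after their values were seen. miR-106b, a relative of miR-17, had 113 5p and 854 3p counts (11.7% 5p). miR-15b, a relative of miR-16 and known to repress BCL2, had 150 and 770 (16.3%). miR-335 had 90 and 651 (12.1%), and miR-301a, a relative of miR-130, had 249 5p and only 13 3p counts (95.04% 5p). By contrast miR-93-5p from the cluster of miR-106b had 714 5p counts and 11 3p counts.

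**Figure D4:**
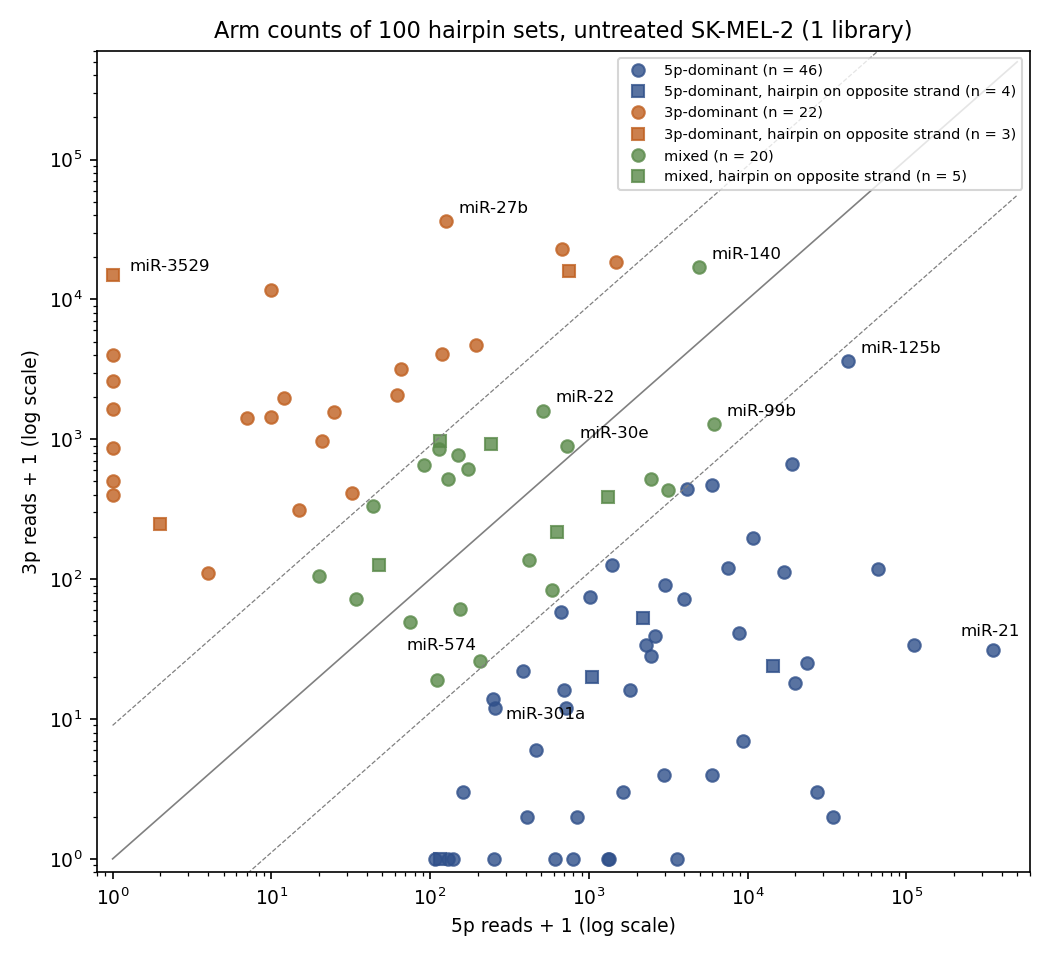
3p reads + 1 against 5p reads + 1 (both axes log) for the 100 hairpin sets, 1 point per set; the solid line marks equal arms, the dashed lines 90% for one arm, and squares are sets with a hairpin on the opposite strand. Most points lie beyond the dashed lines, miR-140 and miR-30e lie between them, and an arm at 0 is drawn at 1.

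The first base of the arms differed with the arm's abundance. In the 88 sets with both sequences, the higher arm began with U in 56 (63.6%) and the lower arm in 15 (17.0%). The lower arm began with C in 36 sets and the higher arm in 12. In the 64 dominant sets U began 42 higher and 6 lower arms, while in the 24 mixed sets it began 14 higher and 9 lower arms. Argonaute is known to prefer a 5′ U and the arm whose 5′ end is less tightly paired. A and U among the first 4 bases, the first base included, were more frequent in the higher arm in 44 sets, equal in 20 and fewer in 24. In the 24 mixed sets these numbers were 8, 5 and 11. As the first base enters this count, it is not a feature separate from the first-base numbers above.

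Over all miRNAs with a sequence the same base stood out by abundance. U came first in 45.5% of the 253 miRNAs with at least 10 counts, in 36.7% of the 2281 listed ones and in 59.3% of the 59 with at least 1000 counts. By reads, 84.5% of the counts of the 253 began with U. The median GC content was 47.6% in the 253 and 52.2% in all listed. A length of 22 bases was held by 54.2% and 44.9%. These are descriptions of related sequences, among them the let-7 members, and carry no test.

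Several entries mirror each other across strands; these pairs were chosen after their values were seen. In 11 pairs, 22 miRNAs with 5.19% of the counts, a mature miRNA was the reverse complement of one from an overlapping hairpin on the other strand. In 5 of them the match ran over the full length of a miRNA, and the smaller partner made 47.0% to 49.2% of the pair. miR-3529-3p, whose 24 bases are the reverse complement of miR-7-5p, had 14868 counts beside 14408. miR-374b-5p had 1045 beside 972 for miR-374c-3p, and miR-103b had 275 beside 248 for miR-103a-3p. miR-423-5p had 242 beside 215 for miR-3184-3p, and miR-338-3p had 52 beside 47 for miR-3065-5p.

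In the 6 pairs that overlap only in part, the smaller partner made 4.70% to 40.3%. miR-24-3p had 16037 counts and miR-3074-5p 1324 over 20 shared bases, and miR-338-5p had 2188 and miR-3065-3p 126 over 19. miR-122-5p had 114 counts and its partner miR-3591-3p 29. Whether strand was used in counting is not given in the sources used here, and without strand the reads of such partners cannot be told apart. The rank of miR-7-5p and miR-3529-3p, the place of their families, and the 3p call of miR-3529 are therefore uncertain.

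Identical sequences also share reads. miR-199a-3p and miR-199b-3p are one sequence from 3 hairpins, 2 of them for miR-199a-3p, and were chosen after their values were seen. miR-199a-3p had 4098 counts, which was 66.4% of the 2 (65.2% to 67.6%), beside 66.7% of the hairpins. miR-365a-3p had 57 and miR-365b-3p 47 counts, with 1 hairpin each, so miR-365a-3p held 54.8% (44.7% to 64.6%) beside 50% of the hairpins. In both, the split of counts lay within its counting interval of the split of hairpins.

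Lists of miRNAs known from melanocytes, melanoma and other cell types were set beside the library. Of all 2588 listed miRNAs, 282 reached 10 counts and 1949 were at 0. Of 13 melanocytic miRNAs, 3 reached 10 counts: miR-204-5p had 2608, miR-146a-5p 1319 and miR-211-5p 128. Of the 10 others, all from the miR-506 to miR-514 cluster, 9 were at 0 and miR-513b-5p had 2 counts. miR-204-5p and miR-211-5p share a seed, and miR-204-5p made 95.3% of their sum. The labelled melanoma line thus had a part of its melanocytic list, with miR-211-5p low and the miR-506 to miR-514 members at 0 to 2 counts.

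Of 18 melanoma-linked miRNAs, 11 reached 10 counts, and the list summed to 42.2% of the library, mostly miR-21-5p. miR-125b-5p, miR-221-3p and miR-30d-5p (8799 counts) came next. Of the 7 under 10 counts, 2 were at 0. Of 6 p53-linked miRNAs, 4 reached 10 counts and the list summed to 191 counts. miR-192-5p had 73, miR-34c-5p 59, miR-194-5p 34 and miR-34a-5p, a direct p53 target, 17.

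Epithelial, blood, pluripotency, islet and muscle markers were mostly at or near 0. No epithelial miRNA of 7 reached 10 counts (sum 16, highest miR-200b-3p and miR-200c-3p at 6), and none of 7 blood miRNAs did (sum 17, highest miR-150-5p at 7). As 282 of all 2588 listed miRNAs reached 10 counts, 0 of 7 says little alone. The 8 pluripotency miRNAs summed to 1 count and the islet miRNA miR-375 was at 0. Of 7 muscle miRNAs only miR-499a-5p reached the minimum, with 14 counts, and miR-1-3p and miR-206 were at 0. The liver miRNA miR-122-5p had 114 counts, and the endothelial miRNA miR-126-3p had 313 with 14 for miR-126-5p.

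Fibroblast and neural lists were uneven inside, and each summed to more than the melanocytic list (4057 counts). For the fibroblast list that order is uncertain. It rests on miR-199a-3p, which has the same sequence as miR-199b-3p, a miRNA outside the list, and their split is not measured. Of 6 fibroblast and mesenchymal miRNAs, 4 reached 10 counts with a sum of 4364, of which miR-199a-3p made 4098. miR-199a-5p had 118, miR-143-3p 85 and miR-199b-5p 61, while miR-145-5p and miR-214-3p, which share transcripts with miR-143 and miR-199a, had 1 count each. Of 8 neural miRNAs, 5 reached the minimum with a sum of 18710, of which miR-9-5p made 16885 and miR-128-3p 1444. miR-129-5p had 257 and miR-9-3p 112, while miR-124-3p, which marks neurons, was at 0. Among 13 entries that overlap or resemble other small RNAs, 9 reached the minimum and together all 13 held 0.0668% of the library, with miR-6087 at 194 counts, miR-7641 at 117, miR-4454 at 99 and miR-1260a at 76.

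**Figure D5:**
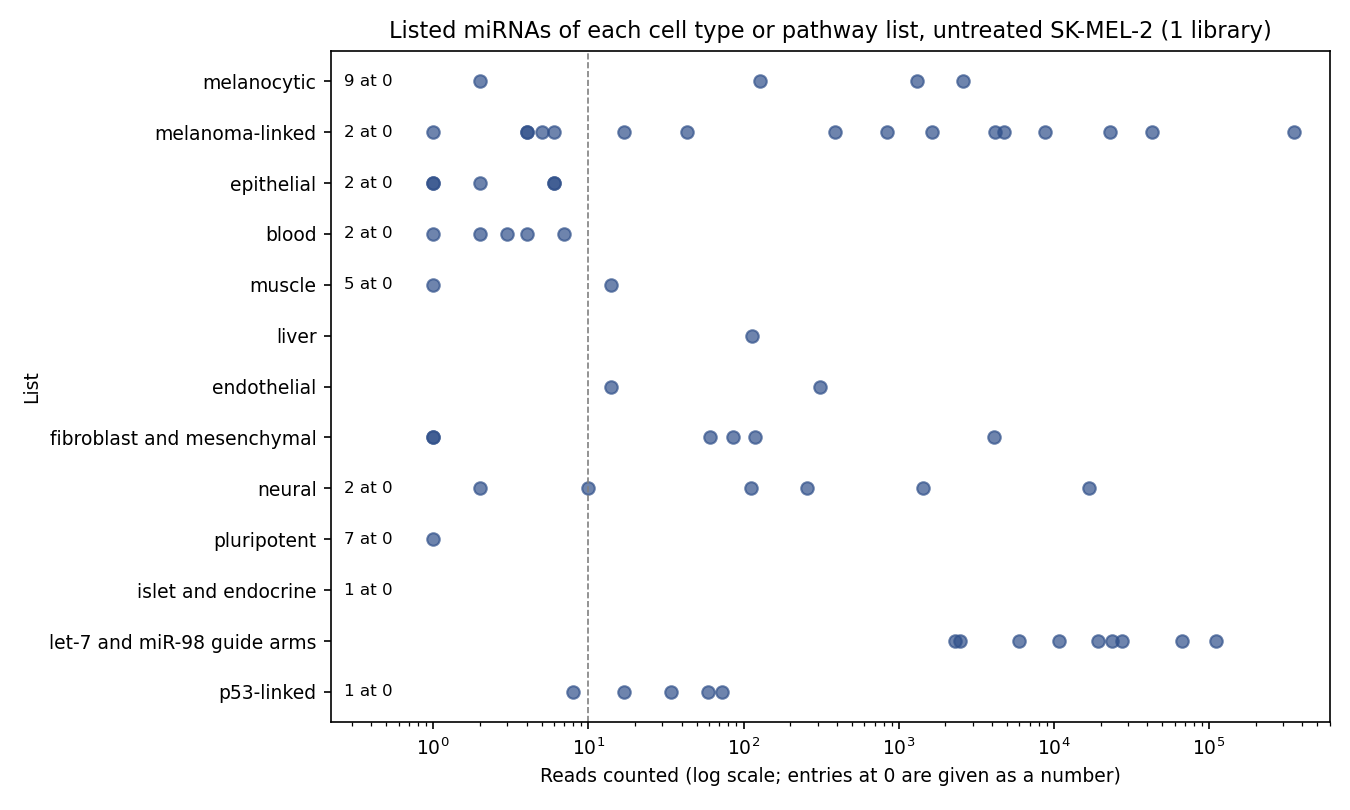
Reads counted (log axis) for each miRNA of the cell type and pathway lists, 1 point per miRNA, with the minimum of 10 counts as a dashed line and the number of entries at 0 written at the left. The melanocytic list has 3 points to the right of the line and 9 entries at 0, and the epithelial and blood lists lie wholly to its left.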

How the data were processed

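Mature miRNAs were measured by small RNA sequencing. The authors deposited whole-number read counts per mature miRNA for each library, and the column of the untreated library was used as deposited. Bowtie2, bedtools and edgeR are named in the submitters' processing notes without role or version. Which build and annotation were used, and how strand and multiple matches were handled, is not given in the sources used here. The library held 1045482 counts. Shares were taken of that total, with exact 95% binomial intervals. Seeds (bases 2 to 8) came from RefSeq, positions from RefSeq GRCh38.p14 and host genes from the GENCODE v29 basic set. Clusters joined hairpins up to 10 kb apart. Reverse complements of at least 16 bases were sought between overlapping hairpins.

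Named miRNAs were the 20 most abundant, up to 4 per family or cluster for the 8 largest of each, the 10 largest arm sets, the 6 mixed sets closest to even, the next 6 3p-dominant and 6 5p-dominant sets, and up to 4 per list. Others are said to be chosen after their values were seen, or are list members that a sum rests on. Members and lists were chosen with earlier results of these data known. The let-7, p53-linked and small-RNA-overlap lists were written later than the others. Other minimums, seeds, gaps and arm thresholds were tried. Intervals were computed with scipy 1.17.1 and tested on simulated counts that held counting error only. Ligation bias, multiple matches and strand were not part of that simulation. Tables were handled with pandas 2.3.3 and numpy 2.4.6, and plots drawn with matplotlib 3.10.9, all under Python 3.11.15. Plasma-exposed libraries were not used here.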

Additional observations from a re-analysis of the deposited data

How the results depend on the processing

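With 1 library no replicate could be left out, and no paired analysis was possible because there was 1 library per group. Whole-profile values that moved beyond counting error, or by over 1.5 times for a number, follow. A minimum of 50 counts left 172 miRNAs and 113 families. Without miR-21-5p, 8 miRNAs made 50% of the counts, the first 10 held 58.7%, the 8 largest families held 73.3% and clusters held 50.1%. Clusters held 31.0% with gaps of at most 3 kb, 36.0% with 50 kb, and 20.9% with miRNAs made by several hairpins left out. Mixed arm sets numbered 12 with dominance at 80%. The 5p share was 80.8% over hairpins that share no miRNA and 84.3% without hairpins opposite another. A minimum of 5 counts gave 2 epithelial and 1 blood miRNA, and a minimum of 20 gave 0 muscle and 1 endothelial miRNA. The other 73 whole-profile values stayed within these bounds. Of single family and cluster shares, 15 rose without miR-21-5p, where the total is smaller, and 5 clusters fell with miRNAs made by several hairpins left out. Depth limits statements on the 143 miRNAs between 10 and 100 counts, whose order is within counting error for many neighbours.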
